A study of Rattus norvegicus with 3 samples.

Results

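The E2F, Rb and Myc families were followed as 10 genes, taken by symbol from the deposited table of 18425 rat genes, and all 10 had a row there. They are the activator E2F genes E2f1, E2f2 and E2f3, the atypical E2F genes E2f7 and E2f8, the pocket protein genes Rb1 and Rbl1, and the Myc genes Myc, Mycn and Mycl. Each had a mean of at least 10 reads over the libraries. The samples were dissected retinas of WT Sprague Dawley rats, taken at P4 after an intravitreal injection of 1 µl at P1, and there was 1 library each for citrate buffer (pH 4.5), saline and STZ. STZ (streptozotocin, a glucosamine-linked nitrosourea that alkylates DNA) was given at 10 µg from a stock made up in such citrate buffer, and the fluid used to dilute it is not given in the sources used here. How many animals or retinas went into a library is not stated in them either. With no replicate, no difference between libraries has a test, and the treatment and the library cannot be told apart.

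E2F factors bind the promoters of genes for DNA replication and S phase entry, the activator E2Fs to switch them on and the atypical E2Fs to switch them off. The pocket proteins, the product of the retinoblastoma gene Rb1 and its relative p107 encoded by Rbl1, bind E2Fs and hold them inactive until cyclin-dependent kinases phosphorylate them. Myc proteins pair with Max on E-box sequences and drive growth and ribosome production, and in the developing retina Mycn is the member known for progenitor proliferation. At the ages studied here the rat retina still holds dividing progenitors.

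The libraries held 21992701 reads on genes for buffer, 21977846 for saline and 22031241 for STZ, and 17354 to 17537 genes had reads. Markers of retinal cells were present in each library, with summed levels of 1081, 1018 and 1185 FPKM over 5 photoreceptor precursor genes in buffer, saline and STZ, and none of the 6 progenitor markers in the table was at 0. Lens markers (8 genes) summed to 11.96, 30.98 and 194.43 FPKM and microglia markers (8 genes) to 46.13, 54.67 and 131.95 FPKM, so both stood highest in STZ. The ciliary and iris epithelium list (5 genes) was highest in saline, at 204.75 FPKM against 56.05 in buffer and 53.85 in STZ. FPKM counts fragments relative to transcript length and library size, and levels of different genes are compared only on that scale.

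The levels of the 10 genes spread over more than an order of magnitude within each library. In buffer the order from high to low was Mycn, E2f1, Mycl, Rb1, Rbl1, E2f7, E2f8, E2f2, E2f3 and Myc, from 51.56 to 1.98 FPKM. Saline had the same order except that E2f2 stood above E2f8. In STZ, Rb1 stood above Mycl, and E2f2 again above E2f8. Among neighbours in these orders, the 95% Poisson intervals of the read numbers, put on the FPKM scale, overlapped for E2f8 and E2f2 and for E2f2 and E2f3 in buffer, for E2f2 and E2f8 in saline, and for E2f7 and E2f2, E2f2 and E2f8, and E2f8 and E2f3 in STZ. All intervals given here cover counting error only, since each group has 1 library and no spread between animals enters them. These reads carry no molecular identifiers and are not independent molecules, so the intervals can be too narrow even for counting error.

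**Figure D1:**
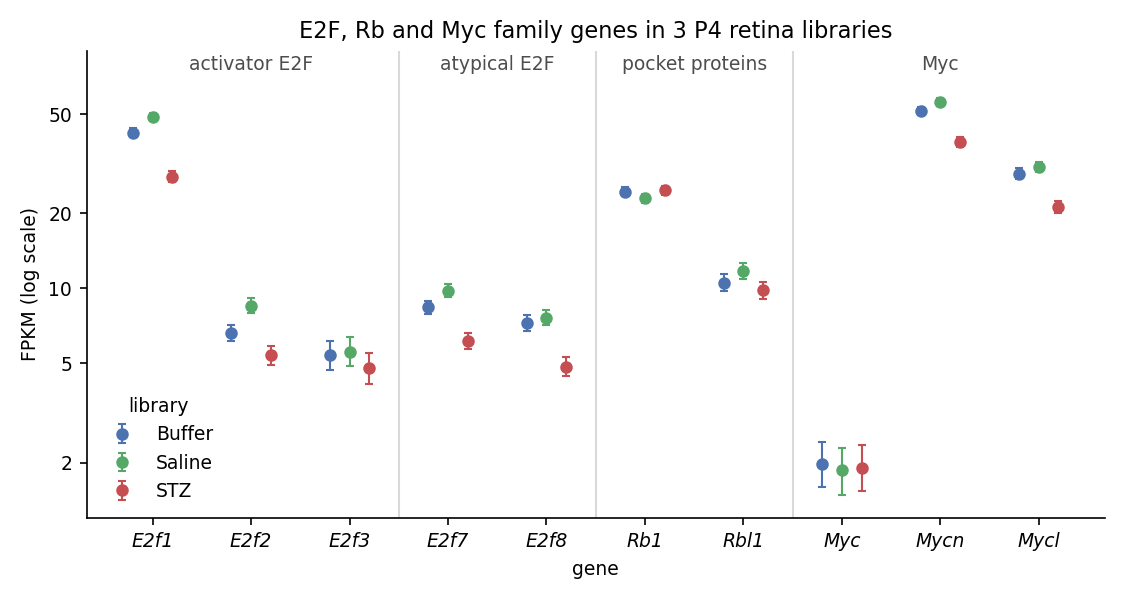
Level of each of the 10 genes in FPKM (vertical axis, log scale) in the buffer, saline and STZ library, with bars for the 95% Poisson interval of its reads. The STZ point lies under both controls for 8 of 10 genes, and Rb1 and Myc are the exceptions.

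A question of the study was whether STZ in the neonatal eye changed gene expression in the retina, and STZ against buffer, the fluid of its stock, addresses it. The fold of a gene was (FPKM + 1)/(FPKM + 1), as in the methods of the study, with its limits, 0.65 below and about its inverse above. Beside it stands the count ratio, the ratio of the gene's shares of the total reads of the libraries, with an exact 95% interval. Against buffer, 0 of 10 genes passed a limit, where 1.04% of all genes lay below 0.65 and 2.25% above the upper limit. In whole retina, fewer cells of a type and less RNA per cell cannot be told apart. The count interval lay wholly below 1 for 6 of 10, E2f1, E2f2, E2f7, E2f8, Mycn and Mycl, against 18.8% of the 14885 genes with a mean of at least 10 reads, and above 1 for 0 of 10, against 26.2% of them. The median log2 fold of the 10 was -0.32, and over all those genes it was 0.03, with 5th and 95th percentiles of -0.35 and 0.44.

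Against saline, 1 of 10 genes, E2f1, lay below 0.65, with 1.75% of all genes below and 2.04% above the limits. The count interval was below 1 for 7 of 10, the same 6 and Rbl1 (23.5% of genes with a mean of at least 10 reads), and above 1 for 1, Rb1 (26.9% of them). The median log2 fold was -0.52, against 0.01 over all those genes, with 5th and 95th percentiles of -0.43 and 0.46. Both comparisons share the STZ library. The interval lay below 1 against both controls for 6 of 10, where 14.8% of genes with a mean of at least 10 reads did so. The width of the interval depends on depth, so the same count was made on genes with a mean of at least 200 reads, a minimum chosen after the data were seen: 6 of 9 family genes, against 18.4% of genes. The STZ level was under both controls for 8 of 10 genes, against 35.2% of genes with a mean of at least 10 reads.

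**Figure D2:**
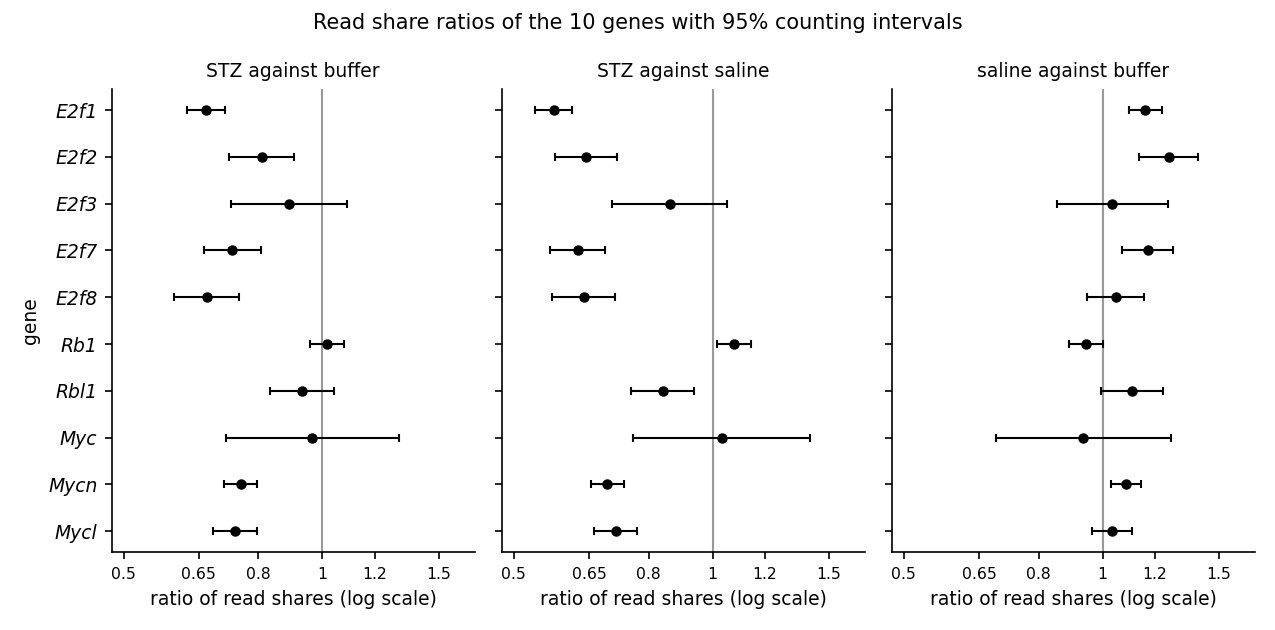
Count ratio of each gene (horizontal axis, log scale) with its 95% counting interval, for STZ over each control and for saline over buffer. Intervals that do not reach 1 number 6 in the first panel, 8 in the second and 4 in the third, and in the third all 4 lie above 1.

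E2F genes and pocket protein genes are themselves known to be read by E2F factors, so the promoters were searched for E2F words. RefSeq promoter windows (assembly GRCr8, 250 bases before to 50 after the start site) matched 5 of the 10 genes, E2f3, E2f7, Rb1, Rbl1 and Mycl, and not E2f1, E2f2, E2f8, Myc and Mycn. The words were TTTCCCGC, TTTGGCGC, TTTCGCGC and TTTGCCGC, on either strand. They were found in 3 of 5, E2f3, Rb1 and Rbl1, against 3.76% of 13201 windows of genes with a mean of at least 10 reads and 2.14% of all 33469 windows. These 3 are shown as 60-base stretches, 5′ to 3′ on the gene's strand, with the word in capitals. With Myc, which had no window, they are the 4 family genes whose folds lay closest to 1 against each control. E2f1, E2f2, E2f8 and Mycn, with count intervals below 1 against both controls, had no window either. The E2f3 interval against buffer, 0.728 to 1.09, also holds the count ratios of E2f7 (0.731) and Mycl (0.737). A link between words and folds was not tested.
E2f3, chr17:34810312-34810371 (+): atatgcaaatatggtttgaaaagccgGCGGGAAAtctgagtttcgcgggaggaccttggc
Rb1, chr15:54911822-54911881 (-): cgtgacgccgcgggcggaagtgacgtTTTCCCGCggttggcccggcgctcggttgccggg
Rbl1, chr3:166289361-166289420 (-): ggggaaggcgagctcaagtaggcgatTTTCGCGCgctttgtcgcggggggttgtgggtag

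The E2f3 stretch carries TTTCCCGC on the opposite strand, with its first base at -78 from the start site. The Rb1 word TTTCCCGC begins at 3, past the start site, and the Rbl1 word TTTCGCGC at -18. E2f7 and Mycl, with folds of 0.76 and 0.74 against buffer, held none of the words in their windows. The E2f7 window opens with TTCCCGC, so a TTTCCCGC word across its edge would not be seen. The E-box CACGTG, the Myc word, was in 0 of 5 family windows and in 8.92% of windows of genes with a mean of at least 10 reads. TTTGAA, the word of late cell cycle promoters, on either strand, was in 1 of 5, E2f3, and in 12.2% of those windows.

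E2f1 (NCBI gene 399489), the best known activator of S phase genes, was the highest of the 5 E2F genes in each library. The buffer library gave 42.1 FPKM (2233 reads), saline 48.87 (2589 reads) and STZ 28.05 (1491 reads). STZ was lowest and saline highest, and the 3 intervals, 40.4 to 43.9, 47.0 to 50.8 and 26.6 to 29.5 FPKM, did not overlap. The fold was 0.67 against buffer, just inside the limit of 0.65, and 0.58 against saline, past it. These folds lie at the 1.49 and 1.03 percentiles of all genes with a mean of at least 10 reads. The count ratios were 0.667 (95% interval 0.624 to 0.712) and 0.575 (0.539 to 0.613). Within its own library E2f1 ranked at the 86.0 percentile of genes by FPKM in buffer, 88.4 in saline and 77.5 in STZ.

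E2f2 (684111), a further activator, was at 6.62, 8.54 and 5.39 FPKM in that order of libraries (buffer, saline, STZ), from 683, 859 and 554 reads. Saline was again the highest library and STZ the lowest. Its fold was 0.84 against buffer and 0.67 against saline, and the count ratios were 0.81 (0.723 to 0.907) and 0.643 (0.577 to 0.717). E2f3 (291105), an activator with a known part in cell proliferation and a TTTCCCGC word in the window shown above, was at 5.39, 5.58 and 4.79 FPKM with only 212, 219 and 189 reads. Its order was the same but the difference was within counting error, with a count ratio of 0.89 (0.728 to 1.09) against buffer and 0.861 (0.705 to 1.05) against saline.

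The atypical E2F genes, whose products repress E2F targets late in S phase without a DP partner, were also lowest in STZ. E2f7 (314818) was at 8.39, 9.81 and 6.16 FPKM in buffer, saline and STZ (947, 1107 and 693 reads), and its count ratio was 0.731 (0.661 to 0.807) against buffer and 0.624 (0.567 to 0.687) against saline. E2f8 (308607) was at 7.27, 7.62 and 4.86 FPKM (782, 818 and 523 reads), with count ratios of 0.668 (0.597 to 0.747) and 0.638 (0.570 to 0.713). For E2f8 the controls lay close together, with saline against buffer at 1.05 (0.948 to 1.16), whereas E2f7 was higher in saline than in buffer, at 1.17 (1.07 to 1.28). As folds, E2f7 stood at 0.76 and 0.66 and E2f8 at 0.71 and 0.68, all short of the limit of 0.65.

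Summed FPKM over the 5 E2F genes was 69.77, 80.42 and 49.25 in buffer, saline and STZ. The activators made up 54.11, 62.99 and 38.23 FPKM of that, and the atypical genes 15.66, 17.43 and 11.02. The activator sum over the atypical sum was 3.46, 3.61 and 3.47, a balance that rests mainly on E2f1, since the count ratios against buffer were nearer 1 for E2f2 and E2f3 than for E2f7 and E2f8. E2f1 took 60.3%, 60.8% and 57.0% of the summed level of these 5, and E2f3 took 7.73%, 6.94% and 9.73%, its highest share being in STZ.

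Of the pocket protein genes, Rbl1 was lowest in STZ and Rb1 was not. Rb1 (24708), the tumour suppressor whose loss gives retinoblastoma in children, was at 24.4, 23.03 and 24.81 FPKM in buffer, saline and STZ, from 2239, 2111 and 2281 reads. STZ was the highest library here by a small margin, and the count ratio was 1.02 (0.959 to 1.08) against buffer and 1.08 (1.02 to 1.14) against saline. Both intervals lay wholly above those of E2f1, Mycn and Mycl. The side of Rb1 on STZ against buffer depends on the library scaling, with a fold of 1.02 as deposited and 0.989 with TMM scaling. Rbl1 (680111), for p107, was at 10.56, 11.71 and 9.84 FPKM (643, 712 and 600 reads), lowest in STZ, and its count ratio was 0.931 (0.832 to 1.04) against buffer and 0.841 (0.753 to 0.938) against saline.

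Rbl2, for the pocket protein p130 of resting cells, was at 14.64, 14.1 and 15.2 FPKM and its count ratio against buffer was 1.04 (0.965 to 1.12). The 3 pocket protein genes together summed to 49.6 FPKM in buffer, 48.84 in saline and 49.85 in STZ. On the FPKM scale, E2f1 over Rb1 was 1.73, 2.12 and 1.13 in the order buffer, saline, STZ. In that ratio STZ was lowest and saline highest, and it follows E2f1, since Rb1 was nearly level.

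**Figure D3:**
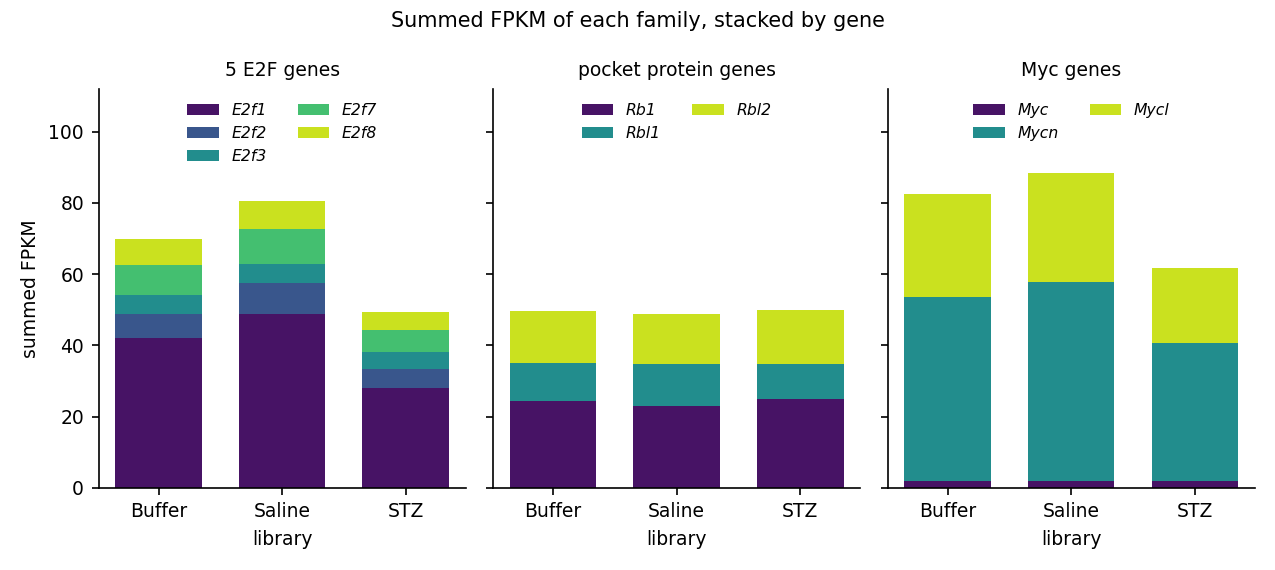
Summed FPKM of each family (vertical axis, from 0) in the 3 libraries, stacked by gene, with Rbl2 added to the pocket protein genes. The columns of the 5 E2F genes and of the Myc genes are shortest in STZ, at 49.25 and 61.82 FPKM, and the pocket protein columns run from 48.84 to 49.85 FPKM.

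Mycn (298894), the Myc gene of retinal progenitors, was the highest of the 10 genes in every library. Buffer had 51.56 FPKM (2686 reads), saline 55.93 (2915 reads) and STZ 38.72 (2024 reads). STZ was lowest, and its interval of 37.1 to 40.4 FPKM lay apart from those of the controls, 49.6 to 53.6 and 53.9 to 58.0. The fold was 0.76 against buffer and 0.70 against saline, and the count ratios were 0.752 (0.710 to 0.797) and 0.693 (0.654 to 0.733).

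Mycl (298506), for the L-Myc protein, had nearly the same proportion. It was at 28.93, 30.68 and 21.19 FPKM (1599, 1652 and 1181 reads), with the STZ library lowest and count ratios of 0.737 (0.683 to 0.795) and 0.713 (0.661 to 0.769). Mycn over Mycl differed little, at 1.78, 1.82 and 1.83. Myc itself (24577) was at 1.98, 1.86 and 1.91 FPKM, with no more than 92 reads in a library, and no library stood apart. Its count ratio was 0.966 (0.713 to 1.31) against buffer and 1.03 (0.759 to 1.41) against saline, and the first interval holds the value of Mycn, so a difference of that size was not detectable against buffer at this depth. The summed Myc level was 82.47, 88.47 and 61.82 FPKM, of which Mycn made 62.5%, 63.2% and 62.6%.

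Saline against buffer shows how far the controls lay apart. No family gene passed a fold limit, where 1.43% of all genes did, and the folds ran from 0.95 for Rb1 to 1.25 for E2f2. The count interval lay above 1 for 4 of 10, E2f1, E2f2, E2f7 and Mycn, against 15.9% of genes with a mean of at least 10 reads. It lay below 1 for 0 of 10, for which no share over all genes was computed. E2f1 stood at 1.16 (1.10 to 1.23), E2f2 at 1.26 (1.14 to 1.39) and Mycn at 1.09 (1.03 to 1.14). The choice of control moved E2f2 most, whose count ratio in STZ was 0.81 against buffer and 0.643 against saline.

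Among the remaining E2F and DP genes, E2f4 and Tfdp2 had count intervals below 1 against both controls. E2f4, a repressor E2F of resting cells, was at 33.09, 33.86 and 28.36 FPKM in buffer, saline and STZ, with a count ratio of 0.857 (0.791 to 0.93) against buffer. E2f5 was at 19.11, 19.11 and 17.78 FPKM, and E2f6, a repressor that works without pocket proteins, at 26.26, 25.65 and 24.81. Both had intervals that held 1 against each control. Of the DP partners that E2Fs need to bind DNA, Tfdp1 was at 57.13, 54.62 and 57.85 FPKM and Tfdp2 at 33.34, 36.11 and 25.52. Tfdp2 was lowest in STZ, with count ratios of 0.774 (0.742 to 0.807) and 0.718 (0.689 to 0.749), while Tfdp1 against buffer was 1.01 (0.96 to 1.06).

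Around the families, lists of related genes were read by their counts and medians, beside the all-gene median log2 folds of 0.03 and 0.01. Of 28 genes held to be E2F targets, for replication origins, helicase and nucleotide synthesis, 24 were lower in STZ than in buffer and 25 lower than in saline. Their count intervals lay below 1 for 19 and 21 genes and above 1 for 1 and 2, where 18.8% and 23.5% of all genes with a mean of at least 10 reads had them below 1, and the median log2 folds were -0.23 and -0.29. None of the 28 passed a fold limit against buffer. A single one, Cdc6, which loads the helicase and is named here after its values were seen, passed against saline at a fold of 0.63 (345, 372 and 214 reads). Pola1 and Tyms, named likewise, were on the other side, with folds of 1.11 and 1.10 against buffer.

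Of 24 Myc target genes, mostly of ribosome production, 13 were lower and 11 higher than in buffer, and 14 lower and 10 higher than in saline. Against buffer the intervals lay below 1 for 7 and above 1 for 7, where 18.8% and 26.2% of genes with a mean of at least 10 reads did so. Against saline they lay below 1 for 8 and above for 10, where 23.5% and 26.9% did so. The median log2 folds of the list were -0.02 and -0.07, and its genes lay on both sides. The 8 measured genes of Myc protein stability, ubiquitin ligases and kinases among them, had medians of -0.02 and -0.06, and 0 passed a limit.

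Among 10 genes of the Max network, the partners and antagonists of Myc, 8 were lower than in buffer and 9 lower than in saline, with medians of -0.16 and -0.13. Their count intervals lay below 1 for 6 and 4, against 18.8% and 23.5% of genes with a mean of at least 10 reads. They lay above 1 for 0 and 1, against 26.2% and 26.9%. Mxd3, which pairs with Max in dividing cells, was the only gene of the pathway lists past the same limit against both controls. Buffer had 20.29 FPKM, saline 22.68 and STZ 11.88 (339, 378 and 199 reads), so STZ was lowest, with folds of 0.60 and 0.54 and count ratios of 0.586 (0.489 to 0.700) and 0.525 (0.440 to 0.625). Of 6 genes for MuvB and B-Myb, which take over from E2F in late cell cycle, 4 were lower against each control, with medians of -0.08 and -0.17. Their intervals lay below 1 for 2 and 4 of 6, against the same 18.8% and 23.5%, and above 1 for 0. B-Myb itself (Mybl2, named after its values were seen), an E2F target that joins MuvB, was at 15.97, 17.15 and 11.79 FPKM, with folds of 0.75 and 0.70.

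**Figure D4:**
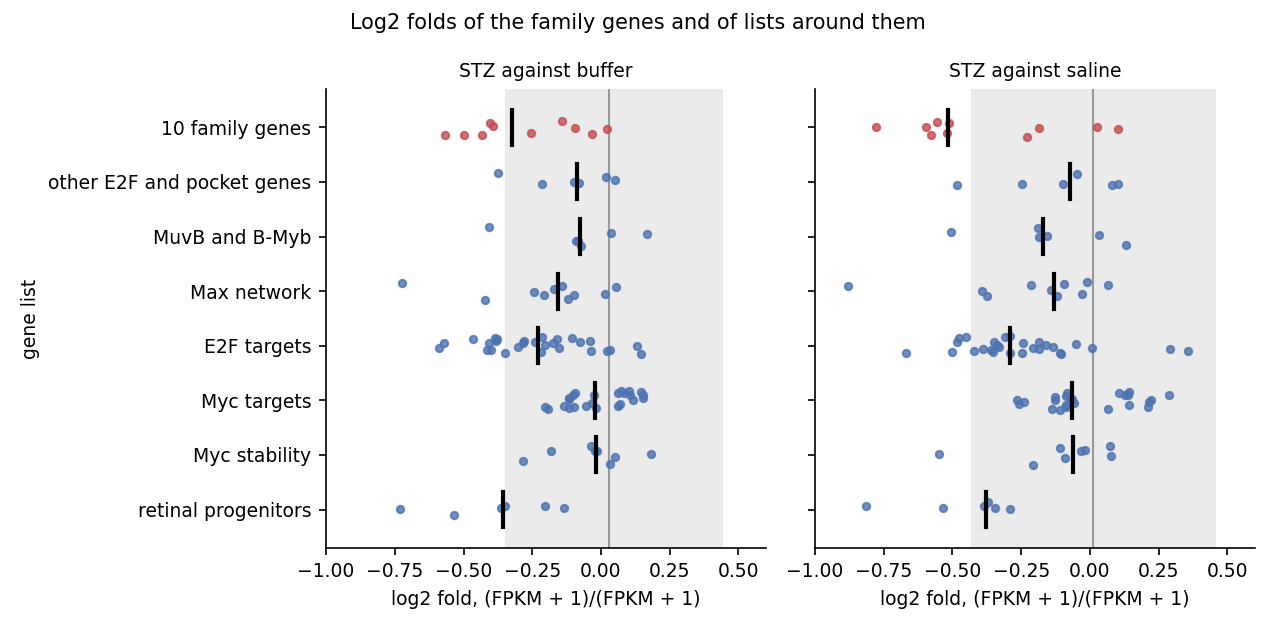
Log2 fold of each gene (horizontal axis) by list, for STZ over buffer (left) and over saline (right), with a black bar at each list's median, a grey line at the median and grey shading from the 5th to the 95th percentile of genes with a mean of at least 10 reads. The 10 family genes have medians of -0.32 and -0.52, and those of the Myc target list are -0.02 and -0.07.

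Cell type markers also differed between the libraries, and not all in one direction. The 6 progenitor markers summed to 377.76 FPKM in buffer, 406.82 in saline and 294.76 in STZ, ratios of 0.780 and 0.725, and 6 of 6 were lower in STZ against each control, with median log2 folds of -0.36 and -0.38. STZ lay under both controls for 35.2% of genes with a mean of at least 10 reads. The sums of the 5 E2F genes and of the 3 Myc genes stood at 0.706 and 0.750 of buffer, and at 0.612 and 0.699 of saline. With E2f4, E2f5 and E2f6 added, the 8 E2F genes summed to 148.23, 159.04 and 120.2 FPKM, ratios of 0.811 and 0.756. Endothelial markers (5 genes) were also lower, at 117, 127 and 82.9 FPKM, of which Kdr made most, and the other 4 summed to 11.32, 9.89 and 2.71 FPKM. Photoreceptor, ganglion cell and amacrine and horizontal cell lists (5 genes each) had summed ratios of 1.10, 1.13 and 1.16 against buffer. Their genes did not all go one way, since 3, 5 and 3 were higher and 2, 0 and 2 lower than in buffer. Pericyte and astrocyte markers (4 genes each) summed to 10.5 and 14.4 FPKM in buffer and to 4.33 and 7.33 in STZ. Pigment epithelium markers (6 genes) summed to 54.9, 68.4 and 53.7 FPKM, mostly from Ttr, with Rpe65 at 0 in buffer. Without Ttr they summed to 8.77, 29.77 and 9.7 FPKM, so the other 5 were highest in saline, as the ciliary list was. The part of these markers, and of the lens, microglia and ciliary lists above, in the family values was not tested.

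In the E2F target list, 12 of 22 windows (54.5%), from 20 of the 28 genes, held an E2F word, against 3.76% of windows of genes with a mean of at least 10 reads. The genes with a word (12) had median log2 folds of -0.34 against buffer and -0.31 against saline, and those without (8) had -0.24 and -0.35, so the order of the medians was not the same against both controls. Of 22 windows of Myc targets, 7 (31.8%) held the E-box and 2 (9.09%) an E2F word. Of the E2F targets, Pola1 and Tyms, with folds of 1.11 and 1.10 against buffer, also held an E2F word. The 3 targets with a word and the lowest fold against buffer are shown for comparison with the family genes. Their folds were 0.67 for Uhrf1, which maintains DNA methylation, 0.73 for Mcm2 and 0.75 for Mcm3, both of the replicative helicase.
Uhrf1, chr9:1222967-1223026 (+): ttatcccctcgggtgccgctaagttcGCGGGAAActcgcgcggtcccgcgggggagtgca
Mcm2, chr4:122918075-122918134 (-): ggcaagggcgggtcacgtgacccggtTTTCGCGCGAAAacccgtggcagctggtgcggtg
Mcm3, chr9:30733719-30733778 (-): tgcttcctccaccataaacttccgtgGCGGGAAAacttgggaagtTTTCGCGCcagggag

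The Mcm2 and Mcm3 stretches each hold 2 words, which overlap on opposite strands in Mcm2, and the Uhrf1 stretch holds 1. The windows of family genes had a median GC content of 64%, against 60.3% for genes with a mean of at least 10 reads and 51.7% for all windows. A word in a window is a match of letters and not a measured binding site.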

How the data were processed

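RNA of 3 rat retina libraries (buffer, saline and STZ, 1 each) was sequenced. The study aligned its trimmed reads with TopHat2 after a FastQC check and kept uniquely placed reads only, so genes with near-identical copies lose reads. The submitters' processing notes name the build rn6, and the annotation is not given in the sources used here. The authors deposited for each gene an FPKM computed with an R script, a TPM and an estimated read count. Between 12.9% and 13.2% of the estimated counts deposited per library are fractional, and the values were rounded to whole reads for intervals. All 10 family genes have whole counts. The table of the series and those of single libraries hold the same values.

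Here, folds, count ratios (exact Clopper-Pearson, 95% level) and shares were computed with scipy 1.17.1, pandas 2.3.3 and numpy 2.4.6 under Python 3.11.15, and figures were drawn in matplotlib 3.10.9. TMM factors (edgeR 4.0.16) and median-of-ratios factors (DESeq2 1.42.0, R 4.3.3) served only to rescale FPKM, and no count model was fitted since there are no replicates. Named were the 10 genes, the 6 other E2F and pocket genes, and from each other list up to 4 genes with a mean of at least 10 reads that were past the same limit against both controls. By that last part Mxd3 was named. Cdc6, Pola1, Tyms, Mybl2, Uhrf1, Mcm2 and Mcm3 fall outside the rule and were chosen after their values were seen, as were the marker genes named. Members and lists were chosen with earlier results of these data known. Of 151 list genes, 148 are in the table, and Huwe1, Cip2a and Fgf15 are not found there under those symbols. Of the 18425 gene identifiers, 17120 matched RefSeq's GRCr8 table. No gene coordinates of rn6 were used.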

Additional observations from a re-analysis of the deposited data

How the results depend on the processing

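The number of family genes past the limits was 0 for STZ over buffer, 1 for STZ over saline and 0 for saline over buffer. A counting interval that excludes 1 in place of the limits gave 6, 8 and 4. In STZ against saline, a pseudocount of 0.1 gave 4 (E2f1, E2f2, E2f7 and E2f8), CPM from the counts 3, TPM 2 and limits of 2 and 0.5 gave 0. TMM scaling, median-of-ratios scaling and a minimum mean of 10 reads gave 1. In the other comparisons the alternatives of pseudocount, limits, scaling, CPM, TPM and read minimum gave 0. In STZ against buffer, a change of control put E2f1 alone below the lower limit. Its fold was 0.6249 with the mean of both controls and 0.5825 with saline as control. In STZ against buffer 67 of 70 alternative folds of single genes lay on the same side of 1. The exceptions were Rb1 (0.989 with TMM and 0.990 with median-of-ratios scaling) and Myc with saline as control (1.02). In the other comparisons all 50 did. A change of pseudocount cannot move a fold across 1, and saline as control repeats the folds of STZ against saline. These counts are therefore no independent check. Shares within a family were close to those from TPM, as they must be, since TPM rescales all FPKM of a library alike. Over all genes, 415 lay above and 191 below the limits in STZ against buffer, 1432 and 831 with a pseudocount of 0.1, and 166 and 52 with limits of 2 and 0.5. In STZ against saline the all-gene numbers were 375 and 322, and 1265 and 1270 with a pseudocount of 0.1. They were 498 and 471 with CPM, 575 and 513 with TPM, and 130 and 85 with limits of 2 and 0.5. A minimum of 200 reads, added after the data were seen, left the count below 1 against both controls at 6.

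With 1 library per group none was left out, and differences between animals or retinas cannot be told from those between treatments. For its P1 injections the study gave STZ to the right eye and citrate buffer to the left eye of each animal. Whether the sequenced buffer and STZ retinas were such pairs is not stated. No paired analysis was possible because each group has 1 library. Depth limits Myc and E2f3, with at most 92 and 219 reads in a library.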
